A study of Mus musculus with 9 samples.

Results

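The zona pellucida and sperm-binding genes are 7 transcripts of the mouse egg that serve its coat and its contact with sperm: the coat proteins Zp1, Zp2 and Zp3, the coat-cleaving protease Astl, the sperm receptor Izumo1r and the tetraspanins Cd9 and Cd81. They were taken by gene symbol from 30153 genes, and all 7 were found. RNA-seq was performed on pools of metaphase II (MII) eggs from 4-week-old Sycp3CreERT2/+; Rosa26nT-nG/+ females on a mixed genetic background. This genotype, with an inducible Cre inserted at a meiotic gene and a nuclear reporter that turns from red to green upon recombination, was shared by all 3 groups. Females received 5 IU PMSG and, 48 h later, 5 IU hCG, and eggs were taken 13 h after hCG, stripped of cumulus cells for 1 min in 0.3 mg/ml hyaluronidase and sorted by hand on their fluorescence. The groups were GFP High (pools of 15 to 16 eggs), GFP Low (49 to 57) and RFP (87 to 100), with 3 libraries each. Group and number of eggs therefore changed together and cannot be told apart. The labels used here give neither the time of Cre induction nor whether replicates came from separate females, so p-values measure the spread between these libraries only.

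The zona pellucida is an extracellular coat that the growing oocyte secretes and that sperm must bind and cross. After fertilization, cortical granules release ovastacin, the product of Astl, which cleaves ZP2 and so hardens the coat against further sperm. At the membrane below, JUNO, the product of Izumo1r, is a folate receptor-like protein on a lipid anchor that binds IZUMO1 on sperm, and CD9 and its relative CD81 are membrane-spanning tetraspanins needed for full egg and sperm fusion. MII eggs make almost no new RNA, so transcripts measured here are those stored or retained from growth.

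Library totals ran from 19381677 to 27746256 counts. All 14 oocyte marker genes (among them Gdf9, Bmp15 and Mos) exceeded 3 counts, the detection limit used here, in each of the 9 libraries. Their summed level lay between 12901 and 15172 CPM, the count scaled to the library total with edgeR's TMM factors. The 22 cumulus and granulosa genes, which mark the somatic cells around the egg, summed to 14.4 to 68.6 CPM in the GFP High pools, 18.1 to 62.1 in the GFP Low pools and 21.3 to 82.5 in RFP when Nr5a2 was left out. Nr5a2 alone was at 20.3 FPKM (the authors' level per transcript length and library) on average, the highest of that list. GFP High 1, GFP Low 1 and RFP 2 had the highest cumulus sums of their groups. In pooled eggs, fewer cells of a type and less RNA per cell cannot be told apart.

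Per transcript length, 6 of the 7 genes were well above the middle of the transcriptome and 1 was barely detected. Zp3 had the highest level, 197 ± 31.5 FPKM (mean ± SD over 9 libraries), which placed it at rank 172 of 18483 protein-coding genes. Astl (113 ± 9.82 FPKM, rank 355) and Zp1 (106 ± 9.64, rank 389) followed at levels that overlapped. Zp2 stood at 84.3 ± 11.7 FPKM (rank 517) and Izumo1r at 57.7 ± 4.29 (rank 835). Cd9 was lower, at 17.5 ± 2.38 FPKM (rank 2635). Cd81 averaged 0.167 ± 0.253 FPKM, at rank 11909, and was listed at 0 in 5 libraries. The steps from Zp3 to Zp1, to Izumo1r, to Cd9 and to Cd81 exceeded the spread over libraries: the lowest Zp3 library (167 FPKM) lay above the highest of Zp1 (123), and the lowest Izumo1r library (51.8) above the highest of Cd9 (21.7). The neighbours Astl and Zp1 did not separate in this way, nor did Zp1 and Zp2, whose highest library reached 110.1 FPKM.

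**Figure D1:**
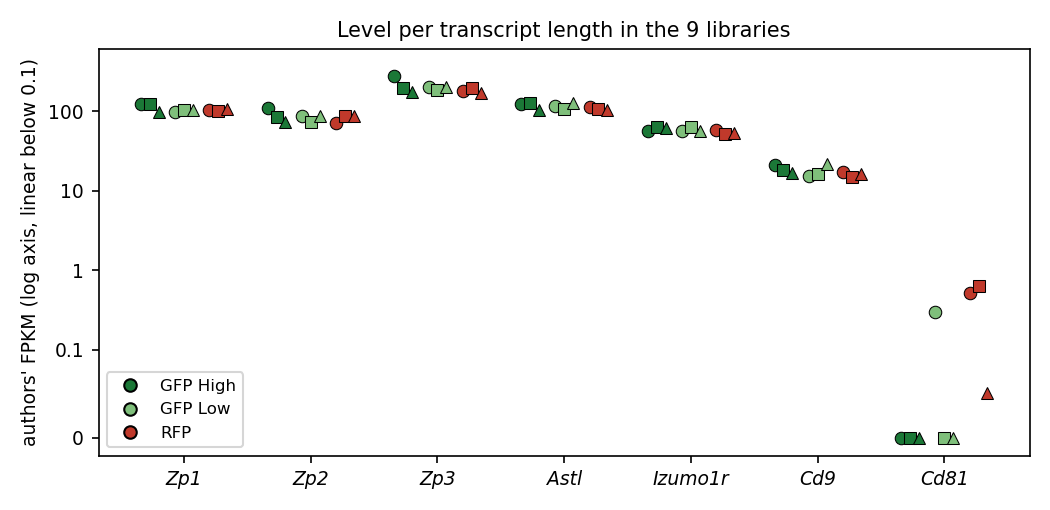
Level of the 7 genes per transcript length in each of the 9 libraries (vertical axis: the authors' FPKM, logarithmic and linear below 0.1; circle, square and triangle are replicates 1, 2 and 3; colour is the group). Within each gene other than Cd81 the 3 groups overlap, and Cd81 is at 0 in 5 libraries.

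The 5 members with a RefSeq promoter entry were examined for the E-box CANNTG, the element through which the oocyte factor FIGLA and its E-protein partner act on the zona genes. The 250 bases before the RefSeq start are shown for Zp3, the most abundant coat transcript, and for the 3 egg-surface genes Izumo1r, Cd9 and Cd81, whose levels step down from one to the next. The bases run 5′ to 3′ on the gene's strand, from RefSeq on GRCm38.p6, and capitals mark each CANNTG. The windows are chr5:135979855-135980104 (plus strand), chr9:14903768-14904017 (minus), chr6:125494761-125495010 (minus) and chr7:143052500-143052749 (plus), in the order of the lines.
Zp3: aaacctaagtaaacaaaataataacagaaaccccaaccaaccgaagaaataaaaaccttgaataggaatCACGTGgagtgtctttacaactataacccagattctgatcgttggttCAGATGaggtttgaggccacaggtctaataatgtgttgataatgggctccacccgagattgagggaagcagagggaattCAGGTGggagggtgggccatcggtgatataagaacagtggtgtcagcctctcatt
Izumo1r: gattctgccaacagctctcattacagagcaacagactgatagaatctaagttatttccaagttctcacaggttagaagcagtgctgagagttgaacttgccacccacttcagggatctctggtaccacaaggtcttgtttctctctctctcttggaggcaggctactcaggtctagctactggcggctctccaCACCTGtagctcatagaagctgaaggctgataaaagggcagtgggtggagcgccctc
Cd9: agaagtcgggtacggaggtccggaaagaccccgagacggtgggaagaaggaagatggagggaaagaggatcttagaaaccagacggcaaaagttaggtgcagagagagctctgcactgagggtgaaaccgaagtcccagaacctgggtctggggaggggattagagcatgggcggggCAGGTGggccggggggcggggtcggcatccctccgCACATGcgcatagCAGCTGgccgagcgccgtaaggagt
Cd81: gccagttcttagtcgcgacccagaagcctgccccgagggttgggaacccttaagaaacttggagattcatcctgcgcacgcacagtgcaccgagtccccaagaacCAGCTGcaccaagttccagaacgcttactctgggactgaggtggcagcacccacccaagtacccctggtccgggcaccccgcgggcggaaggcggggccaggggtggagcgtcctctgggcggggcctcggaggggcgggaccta
Zp3 held 3 E-boxes, which begin 181, 134 and 55 bases before the start, and the nearest is of the form CAGGTG. It also held TATAA (searched on both strands) at 160 and 29 bases before the start. Izumo1r held 1 E-box, CACCTG at 57 bases before the start, which is CAGGTG on the other strand. The deposited Izumo1r gene reaches to 14903949, inside this window, so by the deposited coordinates this E-box lies within the gene. Cd9 held 3, at 73, 38 and 25 bases before the start, the first of them CAGGTG, and Cd81 held 1, CAGCTG at 145 bases. The Cd9 E-box at 25 bases also lies within the gene by the deposited coordinates. The Astl window (chr2:127338389-127338638, plus strand), taken at its most upstream RefSeq start, held no CANNTG. Any other start of Astl was not examined. Of 32851 RefSeq promoters of this length, 66.2% held CANNTG, 17.2% held CAGGTG or its complement CACCTG, and 22.8% held TATAA or its complement, and every CAGGTG is also a CANNTG. The homeobox element TAATTG, searched on both strands and present in 7.17% of promoters, was in none of the 5 windows. Cd9 and Cd81 each had 16 CpG, whereas Zp3, Astl and Izumo1r had 5, 4 and 2 against a median of 6 over all promoters. GC content did not divide the windows in the same way, at 65.6% for Cd81, 61.6% for Cd9, 60.8% for Astl, 50% for Izumo1r and 43.6% for Zp3. A match is a description of these letters, and Zp1 and Zp2 were not in the promoter table.

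Zp1, Zp2 and Zp3, which make up the filaments of the mouse coat with ZP1 as their crosslinker, were at similar levels in the 3 groups. Zp1 (ENSMUSG00000024734, GRCm38 chr19:10914287-10920632, minus strand, 12 exons) was at 244, 241 and 194 CPM in GFP High 1, 2 and 3, 193, 204 and 208 in GFP Low 1, 2 and 3, and 209, 202 and 214 in RFP 1, 2 and 3. GFP High 1 and 2 were above all other libraries, but GFP High 3 was among the lowest, so the groups overlapped. The log2 fold change of Zp1 was 0.12 (SE 0.11, 95% interval -0.12 to 0.37) for GFP High versus RFP, -0.05 (SE 0.08, -0.21 to 0.12) for GFP Low versus RFP and 0.17 (SE 0.11, -0.06 to 0.40) for GFP High versus GFP Low.

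Zp2 (ENSMUSG00000030911, chr7:120126772-120145291, minus strand, 16 exons), the coat protein that ovastacin cleaves, was at 301, 228 and 202 CPM in the GFP High pools, 237, 201 and 241 in the GFP Low pools, and 196, 240.5 and 239.9 in RFP, in replicate order. GFP High 1 stood above the other 8 libraries, which lay between 196 and 241 CPM in all 3 groups. The log2 fold changes were 0.12 (SE 0.15, -0.22 to 0.45), 0.01 (SE 0.10, -0.21 to 0.23) and 0.11 (SE 0.14, -0.21 to 0.43) in the same order of comparisons. Without GFP High 1, Zp2 changed sign to -0.07 versus RFP and to -0.08 versus GFP Low.

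Zp3 (ENSMUSG00000004948, chr5:135980099-135988624, plus strand, 8 exons), the partner of ZP2 in the filament, was at 365, 261 and 234 CPM in the GFP High pools, 269, 247 and 269.8 in the GFP Low pools, and 238, 263 and 227 in RFP. Again GFP High 1 was highest, and the other GFP High libraries fell inside the span of RFP. The log2 fold change was 0.24 (SE 0.16, -0.10 to 0.59) for GFP High versus RFP, the largest among Zp1, Zp2 and Zp3, 0.11 (SE 0.08, -0.07 to 0.29) for GFP Low versus RFP and 0.13 (SE 0.15, -0.19 to 0.46) for GFP High versus GFP Low. Without GFP High 1 the first value fell to 0.02 and the last to -0.09. The coefficient of variation of Zp3 within GFP High was 24.2%, against a median of 9.12% over 1348 genes within 2-fold of its level, 98.3% of which varied less. For Zp2 in GFP High it was 21.1%, against 9.54%, and 94.5% of its like genes varied less. GFP High 1 was also the GFP High library with the highest cumulus sum, 68.6 CPM, and the part of this in the coat values was not tested.

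**Figure D2:**
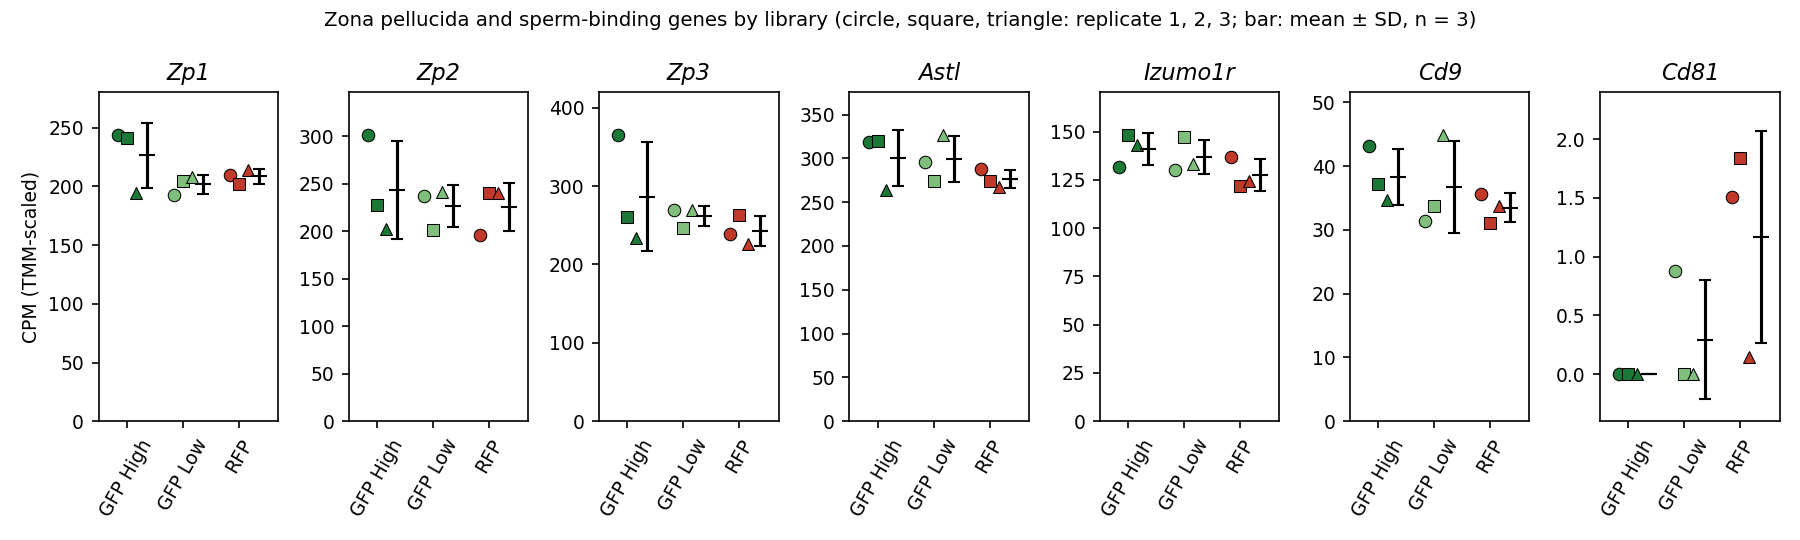
CPM of each of the 7 genes by library (vertical axes: TMM-scaled CPM, 1 panel per gene; symbols are replicates 1, 2 and 3; bars are mean ± SD, n = 3). GFP High 1 stands above all other libraries for Zp2 (301 CPM) and Zp3 (365 CPM), and Cd81 is at 0 in all GFP High libraries.

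The proportions of the coat transcripts were compared within libraries, where scaling cancels. Zp2 was 0.415 ± 0.0125 of Zp3 in the GFP High pools, 0.419 ± 0.0205 in the GFP Low pools and 0.453 ± 0.0575 in RFP (FPKM ratio, mean ± SD, n = 3), and the groups did not pass an exact permutation test (p = 0.479, adjusted 0.529 over 3 ratios). RFP 3 was the highest of the 9 at 0.514, and GFP High 1, despite its high coat values, was at 0.401, inside the range of the others. Zp1 was 0.540 ± 0.0868, 0.515 ± 0.0376 and 0.577 ± 0.0603 of Zp3 in the same groups (exact permutation p = 0.529, adjusted 0.529). The Zp1 share of GFP High 1 was the lowest of the 9, at 0.446. The smallest p that the 1680 assignments of 3 groups of 3 allow is 0.00357. Without RFP 1 the exact permutation p of the Zp2 ratio was 0.0321, and it was the only left-out library with which a coat ratio fell below 0.05.

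Around the coat genes, none of the other listed coat, transcription or secretory genes passed the adjusted threshold of 0.05 in any comparison. The egg-secreted Oosp1 (1211 FPKM over 9 libraries), Oosp3 (183) and Oosp2 (122) were each above Zp1 and Zp2, and Oosp1 was above Zp3 as well, whereas the Zp4 pseudogene Zp4-ps was at 2.93 FPKM. Of the 7 genes on that list 5 could be tested, with a median log2 fold change of 0.21 for GFP High versus RFP, -0.04 for GFP Low versus RFP and 0.25 for GFP High versus GFP Low. The medians over all genes tested were -0.0056, -0.0041 and -0.0048. Zp4-ps went the other way, at 1.98 ± 0.679 FPKM in the GFP High pools, 3.41 ± 0.323 in GFP Low and 3.39 ± 0.228 in RFP. Its log2 fold change for GFP High versus RFP was -0.79 (SE 0.44, edgeR adjusted p = 0.997). The GFP High libraries of Zp4-ps did not overlap those of RFP, as for 11.9% of the genes tested. Oosp1 was highest in the GFP High pools, at 1427 ± 187 FPKM against 1091 ± 47.7 in the GFP Low pools and 1113 ± 208 in RFP, with log2 fold changes of 0.38 (SE 0.09, edgeR adjusted p = 0.998) versus GFP Low and 0.35 (SE 0.14, adjusted p = 0.997) versus RFP. Among transcription factors known to act on oocyte genes, Nobox stood at 207 FPKM, Lhx8 at 76.0, Figla at 22.9 and its partner Tcf3 at 21.6. Figla itself was at 25.3 ± 4.89 FPKM in the GFP High pools, 20.1 ± 0.976 in the GFP Low pools and 23.2 ± 2.34 in RFP. Every GFP Low library of Figla was below every RFP library, with a log2 fold change of -0.21 (SE 0.14) that did not pass (edgeR adjusted p = 1.00), where 7.68% of the genes tested had groups that did not overlap. The 8 tested genes of this list had medians of 0.09, 0.04 and 0.13. In the list of secretory folding and processing genes, Pdia4 (276 FPKM), Calr (222), Canx (118) and Hsp90b1 (104) led, and the medians of the 15 tested genes were -0.02, -0.03 and 0.02.

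Astl (ENSMUSG00000050468, chr2:127338639-127357651, plus strand, 9 exons) was at 319, 319 and 264 CPM in the GFP High pools, 296, 274 and 327 in the GFP Low pools, and 288, 274 and 267 in RFP. The highest library was in GFP Low and the lowest in GFP High, so that neither group stood apart. Its log2 fold change was 0.13 (SE 0.10, -0.10 to 0.35) for GFP High versus RFP, 0.12 (SE 0.08, -0.07 to 0.30) for GFP Low versus RFP and 0.01 (SE 0.10, -0.22 to 0.24) for GFP High versus GFP Low. The last value had no stable sign, ranging from -0.06 to 0.09 as single libraries were left out. Fetub, which encodes the plasma inhibitor of ovastacin, was also present in eggs at 53.5 ± 7.93 FPKM in the GFP High pools, 45.7 ± 3.66 in the GFP Low pools and 42.2 ± 1.95 in RFP. Its GFP High libraries were all above those of RFP, with a log2 fold change of 0.33 (SE 0.13) that did not pass (edgeR adjusted p = 0.997), and 11.9% of the genes tested in that comparison had groups that did not overlap. The other listed astacins and fetuins were lower, led by Tll1 at 10.3 and Mep1b at 3.50 FPKM, and Ahsg was at 0.130 FPKM. None of the 4 tested genes of this list passed, and their medians were -0.03, 0.07 and -0.03. Of the genes for cortical granule transport and exocytosis, Myo5b (85.7 FPKM), Rab11a (77.6), Nsf (44.5) and Rab27a (44.0) were the most abundant. None of the 27, 27 and 26 genes tested in the 3 comparisons passed, and the medians were -0.06, 0.0050 and -0.06.

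Izumo1r (ENSMUSG00000031933, chr9:14885814-14903949, minus strand, 5 exons) had the smallest spread for its mean of the 7 over all libraries. It was at 132, 148 and 143 CPM in the GFP High pools, 130.1, 147 and 134 in the GFP Low pools, and 137, 122 and 124 in RFP. The lowest pair of libraries belonged to RFP, but RFP 1 lay among the others, and 8 of the 9 pairings of a GFP High with an RFP library were higher in GFP High. The log2 fold change was 0.15 (SE 0.11, -0.09 to 0.39), 0.10 (SE 0.09, -0.09 to 0.30) and 0.04 (SE 0.10, -0.18 to 0.27) in the order used above. Its coefficient of variation was 5.98%, 6.58% and 6.50% in GFP High, GFP Low and RFP. The related folate receptors were at 0.06 FPKM (Folr1) and 0.05 FPKM (Folr2), far below Izumo1r. Genes that build the lipid anchor of JUNO were led by Pigf (33.9 FPKM), Piga (11.5), Pigs (7.06) and Pigx (6.62). None of the 24 tested anchor genes passed in any comparison, with medians of 0.09, -0.06 and -0.0015. Among other egg-surface genes, Rdx, which links the membrane to actin, was at 966 FPKM, the complement regulator Cd55 at 49.1, and the integrin chains Itga6 and Itgb1 at 28.4 and 13.7. Itgb1 was lower in every GFP High library than in any RFP library (11.7 ± 2.52 against 15.3 ± 0.340 FPKM). Its log2 fold change of -0.39 (SE 0.17) did not pass (edgeR adjusted p = 0.997). Groups did not overlap for 3 of the 15 surface genes tested in that comparison, against 11.9% of all genes tested. None of the 15, 15 and 14 surface genes tested passed, and the medians were -0.18, -0.04 and -0.08.

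Cd9 (ENSMUSG00000030342, chr6:125460266-125494791, minus strand, 8 exons) was at 43.2, 37.1 and 34.7 CPM in the GFP High pools, 31.4, 33.7 and 44.9 in the GFP Low pools, and 35.6, 31.1 and 33.7 in RFP. GFP Low held both the highest library and the next to lowest, and its coefficient of variation of 19.6% compared with a median of 9.65% over genes of like level. The log2 fold change was 0.20 (SE 0.16, -0.15 to 0.56) for GFP High versus RFP, 0.14 (SE 0.15, -0.19 to 0.46) for GFP Low versus RFP and 0.07 (SE 0.18, -0.34 to 0.47) for GFP High versus GFP Low. Without GFP Low 3 the second value became -0.04. Cd9 was the only one of the 7 that transcripts of other genes, 2 of them, matched at 90% identity or more over at least 100 bases. Of these, Cd9-ps (91.1% over 665 bases) was not analysed here. Gm26728 (100% over 218 bases) is not a copy but overlaps the Cd9 start on the opposite strand, and had at most 2 counts in any library. Of the other tetraspanins, Tspan14 was the most abundant at 38.0 FPKM, above Cd9, followed by Tspan13 (11.05), Tspan3 (7.92) and Cd151 (7.26). None of the 14 tested passed in any comparison, and the medians were 0.0030, -0.09 and 0.08. The tetraspanin partners Igsf8 and Ptgfrn averaged 1.37 and 1.05 FPKM over all libraries. Igsf8 had 57, 1 and 148 counts in GFP High 1, 2 and 3, fewer than any other library (163 to 281). Its mean FPKM was 0.557 ± 0.645 (GFP High), 1.84 ± 0.370 (GFP Low) and 1.70 ± 0.299 (RFP). The log2 fold change of Igsf8 for GFP High versus RFP, -1.62 (SE 0.97), did not pass (edgeR adjusted p = 0.997). These groups did not overlap, as for 11.9% of the genes tested.

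Cd81 (ENSMUSG00000037706, chr7:143052739-143067934, plus strand, 6 exons) was the 1 member whose counts separated groups, at a level close to the detection limit. It had 0 counts in GFP High 1, 2 and 3, 17, 0 and 0 in GFP Low 1, 2 and 3, and 40, 42 and 4 in RFP 1, 2 and 3. The mean was 1.17 ± 0.898 CPM in RFP and 0.292 ± 0.506 in GFP Low. No GFP High library overlapped RFP, and RFP 3 was barely above the limit of 3 counts. Groups did not overlap for 11.9% of the genes tested in that comparison either, but these passed a low-count filter that Cd81 did not. Per library, that limit is 0.122 CPM on average in GFP High. Set against it, the RFP mean of Cd81 was at least 9.56-fold higher than in the GFP High pools. RFP 1 and RFP 2 carried that mean, since RFP 3 was at 0.148 CPM, near the limit. The bound was 8.15-fold without RFP 1, 6.79-fold without RFP 2 and 13.7-fold without RFP 3. Cd81 was removed by the low-count filter in GFP High versus RFP and in GFP High versus GFP Low, so the edgeR test gave it no p there. With the filter off, its edgeR adjusted p for GFP High versus RFP was 0.369, and the authors' deposited table lists a log2 fold change of -7.28 and an adjusted p of 0.0997, which depend on a group at 0. For GFP Low versus RFP the log2 fold change was -2.08 (SE 1.31, -4.91 to 0.76, edgeR adjusted p = 1.00), and -7.93 without GFP Low 1, the only GFP Low library with reads. The ratio of Cd81 to Cd9 was 0, 0.00660 ± 0.0114 and 0.0251 ± 0.0200 in GFP High, GFP Low and RFP (FPKM, n = 3, exact permutation p = 0.0714, adjusted 0.214). Of 3183 genes within 2-fold of the mean of 28.7 counts that Cd81 had in RFP, 66 (2.07%) were likewise at 0 in all GFP High libraries.

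Genes of cumulus and granulosa cells were set beside these counts, since Cd81 is broadly expressed in somatic cells. Inha, a defining granulosa gene, had 88, 0 and 0 counts in the GFP High pools, 108, 0 and 0 in the GFP Low pools and 12, 144 and 0 in RFP. GFP Low 1 and RFP 2 were thus high in both Cd81 and Inha, while RFP 1 had 40 Cd81 counts with 12 of Inha, and GFP High 1 had 88 Inha counts with 0 of Cd81. Other genes of the list were mixed in RFP 1. Cyp11a1 and Star had their highest counts of any library there, 85 and 51. Vcan and Inhba had 196 and 66 there, below their 341 and 188 in RFP 2. Tnfaip6 and Ptx3 had 28 and 18 counts in RFP 1 against 249 and 221 in RFP 2. Without Nr5a2 the list summed to 35.0 CPM in RFP 1 and 82.5 in RFP 2. By number of genes the order differed from that of the sums. GFP Low 1, RFP 1 and RFP 2, with 17 or more Cd81 counts each, had 17, 17 and 16 of the 22 listed genes above 3 counts. The other libraries had 6 to 14, with 13 in GFP High 1. At 0 were 3, 2 and 3 genes in GFP Low 1, RFP 1 and RFP 2, against 7 to 16 in the others, and Foxl2 was at 0 in all GFP High libraries. The 13, 13 and 11 tested genes of the list had medians of -0.41, -0.57 and -0.07, and none passed. GFP High 1 had a cumulus sum of 68.6 CPM, above the 35.0 of RFP 1, with no Cd81 read. The part of cumulus RNA in the Cd81 counts of GFP Low 1 and RFP 2, and of the number of eggs per pool, was not tested. R74862, which overlaps the Cd81 start on the opposite strand, had at most 5 counts in a library.

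**Figure D3:**
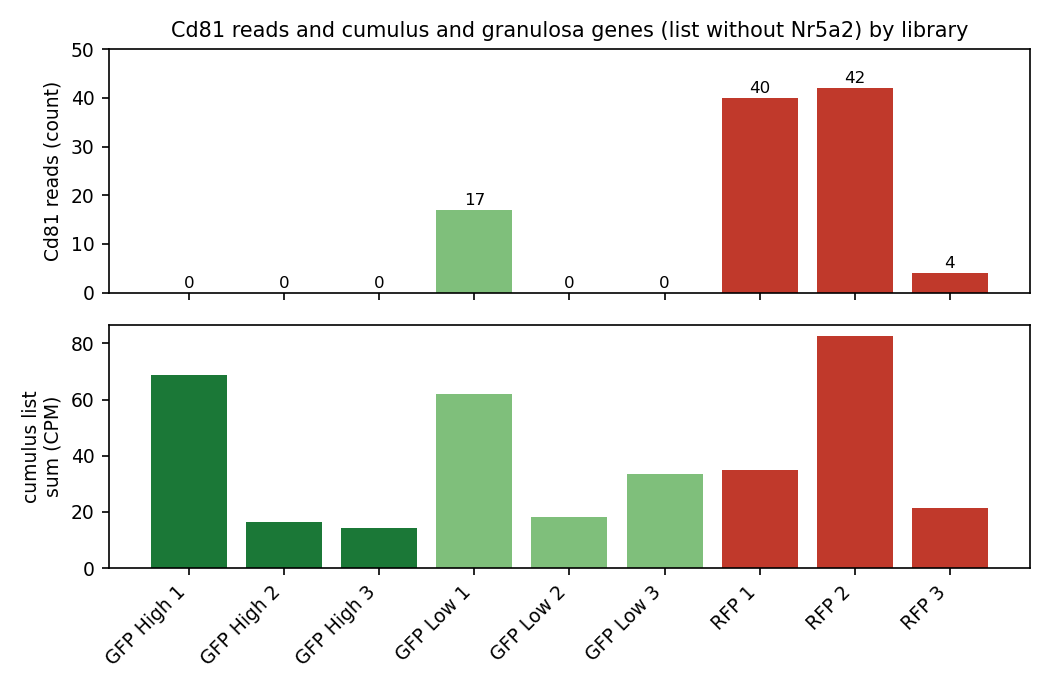
Cd81 counts (upper bars) and the summed CPM of the cumulus and granulosa list without Nr5a2 (lower bars) in each library. GFP Low 1 and RFP 2 are high in both, whereas GFP High 1 has 68.6 CPM of cumulus genes and 0 Cd81 counts.

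Across the family, no tested member passed the threshold of an adjusted p of 0.05 in edgeR's quasi-likelihood test. For GFP High versus RFP 0 of 6 passed, where 0.0135% of the 14829 genes tested did, and every edgeR adjusted p was 0.997. For GFP Low versus RFP 0 of 7 passed, against 0.0197% of 15199 genes, and for GFP High versus GFP Low 0 of 6, against 0.0% of 14785 genes. No member tested in these fits had an unadjusted edgeR p under 0.05 either, where 4.09%, 2.62% and 3.77% of all genes did, and Cd81 was tested only in GFP Low versus RFP. In other fits Cd81 had an unadjusted edgeR p of 8.41e-04 for GFP High versus RFP and 0.0154 for GFP Low versus RFP with the filter off, and 0.0390 for the latter with a replicate block. Without GFP High 3, Zp1 had an unadjusted edgeR p of 0.0467 and Zp3 of 0.0442 versus RFP, and Zp1 of 0.0159 versus GFP Low. Among the 6 members other than Cd81, DESeq2 also called none, and the lowest adjusted p in any of 14 fits per comparison was 0.427. The fold differences these libraries leave room for were modest, since the intervals of the 6 members spanned at most 0.789 to 1.51-fold, short of 2-fold in either direction. All 6 had a log2 fold change above 0 for GFP High versus RFP (49.3% of all genes tested), as did 5 of 7 for GFP Low versus RFP (48.9%), of which Zp2 turned to -0.0015 without TMM scaling, and 6 of 6 for GFP High versus GFP Low (49.4%). Single libraries carried these counts: without GFP High 1 the last was 2 of 6 (Zp1 and Izumo1r) and the first 5 of 6, and without GFP Low 3 the count for GFP Low versus RFP was 3 of 7. These comparisons share libraries, so the directions are not separate observations. The groups did not overlap for 0 of the tested members, against 11.9%, 7.68% and 11.5% of all genes.

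**Figure D4:**
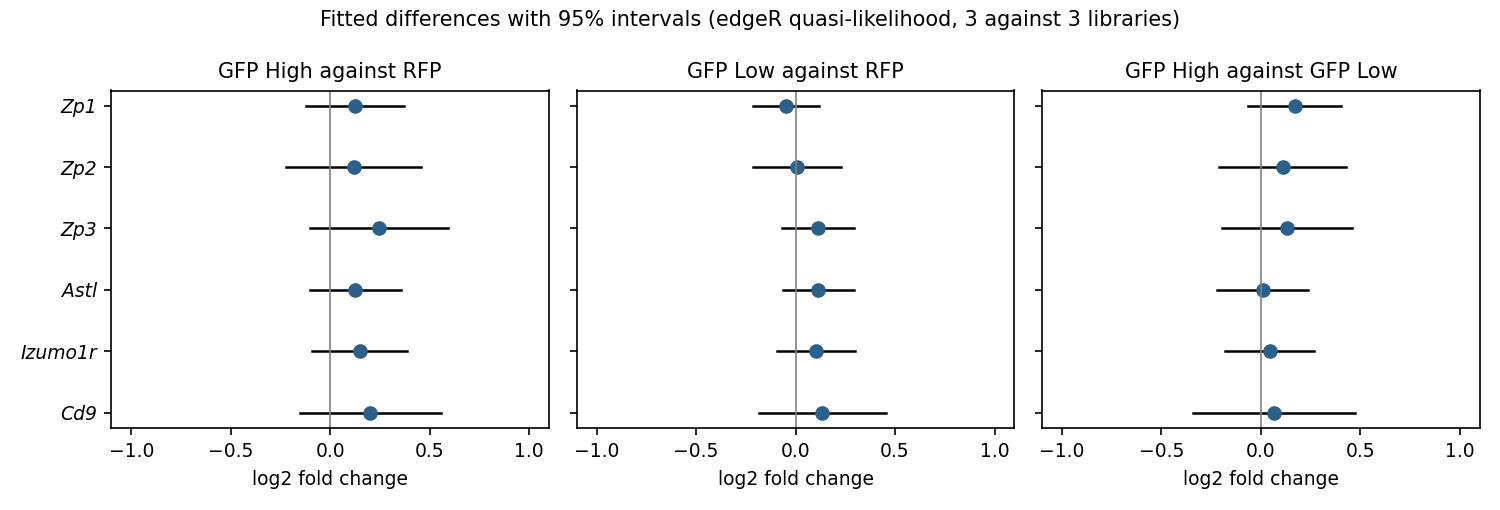
Log2 fold change with 95% interval of the 6 genes tested in all 3 comparisons (horizontal axis: log2 fold change, first group against second; points are edgeR estimates, n = 3 against 3 libraries). Each interval crosses 0 and none reaches 2-fold.

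The deviations of single libraries from each gene's mean showed how the members moved. GFP High 1 was above the mean by 0.48 for Zp3, 0.39 for Zp2, 0.27 for Cd9, 0.20 for Zp1 and 0.13 for Astl on the log2 scale, but not for Izumo1r, at -0.03. GFP Low 3 was above for Cd9 (0.32) and Astl (0.17) with coat genes near their means. The 7 genes together took 0.123% ± 0.0170 of counts in the GFP High pools, 0.116% ± 0.00603 in the GFP Low pools and 0.112% ± 0.00193 in RFP, and GFP High 1 had the highest share, 0.141%. The most alike members, by the root mean square difference of centred log2 CPM over 9 libraries, were Zp1 and Astl (0.10) and Zp2 and Zp3 (0.11). The least alike were Zp2 and Izumo1r (0.24). Among 6056 genes of at least 20 CPM, those closest to the mean of Zp1, Zp2 and Zp3 were Cdk7 (0.05), Aldoa, Foxr1, Paox and Snap23 (0.06 each), against a median of 0.22 over all. Closest to Astl were Ptpa (0.04) and Otub2 (0.05), to Izumo1r Nlrp9c (0.05) and Cyth3 (0.05), and to Cd9 Rasa4 (0.07) and Urod (0.08). For Cd81, Malat1 (1.38) and Gm2042 (1.53) were nearest, but the minimum of 20 CPM keeps out genes as low as Cd81, so these values do not show whether others share its pattern.

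**Figure D5:**
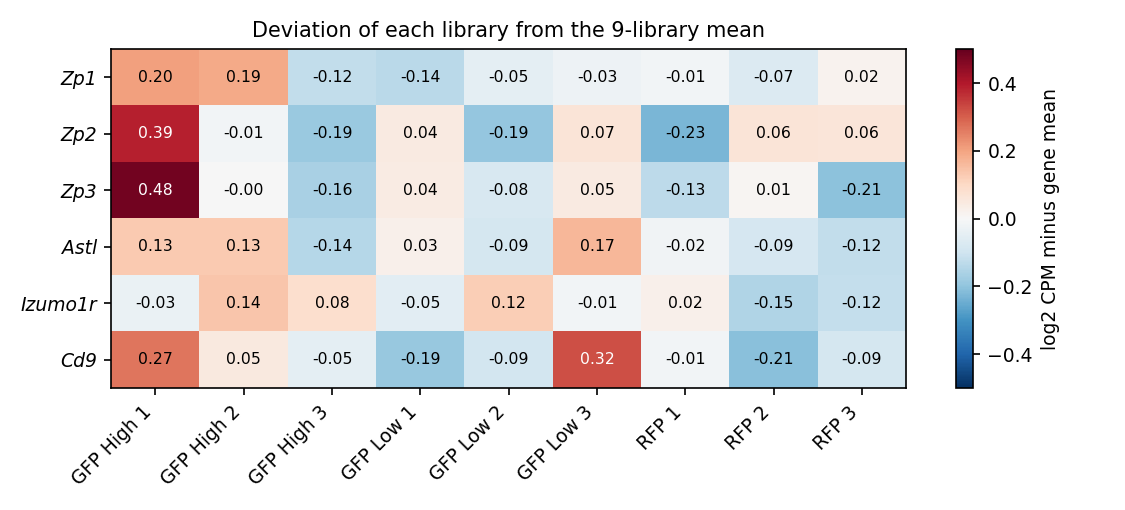
Log2 CPM of each gene and library minus the mean of that gene over 9 libraries, for the 6 members with reads in every library (colour scale and printed values in log2 units). GFP High 1 is highest for Zp3 (0.48) and Zp2 (0.39), and GFP Low 3 for Cd9 (0.32).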

How the data were processed

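Poly-A RNA was sequenced as paired ends from 9 pools of MII eggs, 3 per group, per the labels' protocols, which name no molecular identifiers. The submitters' processing notes name fastp, HISAT2 2.0.5, featureCounts 1.5.0-p3, DESeq2 1.20.0 and mm10, and whether counting used strand is not given in the sources used here. The authors deposited raw read counts per gene in 3 pairwise tables, which were joined to 30153 genes, with 178 genes set to 0 where a table lacked them. FPKM values are the authors', as deposited, and were used only for levels and ratios between genes. The authors' deposited log2 fold change and p-value are quoted only where their table is named. No column was left unassigned (0). All 7 members had the same coordinates in GENCODE M21.

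Each pair of groups was fitted on its 6 libraries with edgeR 4.0.16 (R 4.3.3): filterByExpr, TMM, quasi-likelihood test, Benjamini-Hochberg adjustment over all genes tested, threshold 0.05. The script was tested on simulated data. CPM are TMM-scaled. At the smallest total, 1 CPM rests on about 19.4 reads, and limits drawn from counts (3 counts) cover counting error only. Ratios used two-sided exact permutation tests on log2 values, except Cd81 to Cd9, tested on the linear scale because 5 libraries were at 0. Alternatives were DESeq2 1.42.0, limma-voom (limma 3.58.1), other scalings, no filter, all 9 libraries, a replicate block and leaving out each library. Named were all members, the 4 genes of highest mean FPKM per list with any gene called, and the nearest 5 (coat) or 2 genes of at least 20 CPM. Fetuin, folate receptor, tetraspanin partner, oocyte and somatic marker genes outside that rule were named after their values were seen. Members and lists were chosen with earlier results of these data known.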

Additional observations from a re-analysis of the deposited data

How the results depend on the processing

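No member passed the threshold in any of the 14 fits per comparison in which it was tested. The low-count filter kept Cd81 out of many fits of GFP High versus RFP and of GFP High versus GFP Low. Its lowest adjusted p was 0.0997 (DESeq2, GFP High versus RFP). Over all genes, edgeR called 2, 3 and 0 for GFP High versus RFP, GFP Low versus RFP and GFP High versus GFP Low. DESeq2 called 12, 10 and 4, limma-voom 1, 1 and 0, and edgeR without a filter 16, 34 and 16. Deviations of same-numbered libraries correlated at -0.113 to 0.116, and not every library correlated best with its own number, so the numbers were not taken as pairs. Fitting the replicate block gave 4 calls for GFP High versus RFP and changed no member's call. Leaving out single libraries gave 0 to 2, 2 to 3 and 0 to 1 calls. GFP High versus RFP fell to 0 when GFP High 1 or 3, or RFP 2 or 3, was left out, and 1 gene passed for GFP High versus GFP Low without GFP High 3. The cause was not tested. Of the members' log2 fold changes under the other settings, 132 kept their direction and side, and 1 reversed (Zp2, GFP Low versus RFP, -0.0015 without TMM). With a library left out, 101 kept them and 13 reversed. The ranges were -0.0715 to 0.23 (Zp2) for GFP High versus RFP, and -0.0860 to 0.0831 (Zp2) and -0.0397 to 0.23 (Cd9) for GFP Low versus RFP. For GFP High versus GFP Low they were -0.0794 to 0.22 (Zp2), -0.0875 to 0.25 (Zp3), -0.0557 to 0.0885 (Astl) and -0.0371 to 0.23 (Cd9). The exact permutation p ranged from 0.0321 to 0.921 for Zp2 to Zp3, from 0.296 to 0.836 for Zp1 to Zp3 and from 0.0714 to 0.286 for Cd81 to Cd9. With the replicate block these were 0.5, 0.528 and 0.111. Depth limits Cd81 alone, at 0 to 42 counts. The other 6 members had at least 610 counts in every library.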

Other observations

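Of 22 listed sperm genes, 17 were found among the 30153 genes, and 7 to 12 of them exceeded 3 counts in a given egg pool. Tex101 had only 2 counts in total over the 9 libraries. 4930451I11Rik was at 30.3 FPKM over 9 libraries, with a spread of 31.0 ± 20.2 in the GFP High pools, 34.0 ± 7.18 in the GFP Low pools and 26.0 ± 3.41 in RFP. Prm2, a protamine of sperm chromatin, was at 8.64 FPKM and the hyaluronidase gene Spam1 at 3.84, and between 3 and 10 of the list were at 0 in a library. None of the 7, 8 and 7 tested passed in the 3 comparisons, with medians of 0.14, 0.09 and -0.11.

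Of the 14 oocyte marker genes, which include Oosp1 from the coat list above, none passed between GFP High and the other groups. Dppa3 (2086 FPKM), Npm2 (1822), Oosp1 (1211) and Padi6 (787) led the list. Of 14 tested, 5 had groups that did not overlap for GFP High versus RFP and 5 for GFP High versus GFP Low, against 11.9% and 11.5% of all genes, and the medians were 0.11 and 0.08. For Npm2, a chaperone of egg chromatin, edgeR gave a log2 fold change of 0.22 with an SE of 0.09 (adjusted p = 0.997) for GFP High versus RFP.

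Cd81 and 9 other genes, of 30153, had 0 counts in the same 5 libraries and at least 10 in RFP 1 and RFP 2. The search used these limits after the values of Cd81 were seen, so the shared zeros follow from it. Elsewhere the genes differed. In RFP 3, where Cd81 had 4 counts, Kctd11, Fgl2, H2-D1 and Gm11775 were at 0. Kctd11 was also at 0 in GFP Low 1. Among the 9 were Tmsb4x, with 34, 10 and 5 counts in RFP 1, 2 and 3, and H2-D1, with 24, 13 and 0 counts there and 15 in GFP Low 1. Nop16 had 16, 14 and 6 counts in RFP and 11 in GFP Low 1.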
